A study of Homo sapiens with 54 samples.

Results

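The interferon-stimulated genes described here are 37 of the 39 symbols on a list of antiviral effectors, RNA and DNA sensors, transcription factors and ubiquitin-like modifiers, out of 18417 genes that the arrays measured with a probe set carrying 1 gene symbol. A gene was represented by its probe set with the highest mean over all arrays. GBP1 fell outside this rule because its probe set also carries the symbols of GBP3 and GBP1P1, and STAT2 was not analysed here. The groups were cells given calcitriol, the hormonal form of vitamin D, for 36 h, cells given it for 8 h, and untreated cells at 0 h. Each group was measured in 9 cell lines with 2 arrays a line and time, 54 arrays in all. GM07019, GM07348, GM10854 and GM12878 are lymphoblastoid lines, which are B cells immortalised with Epstein-Barr virus. The other 5 lines were Ag09309 and Ag09319, which carried fibroblast transcripts, K562 and HL60, both from myeloid leukaemias, and HEP-G2, from a liver cancer. The titles of the GM10854 arrays name another line, and the cell line field was followed. No genotype or dose is given in the sources used here.

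Type I interferons bind a receptor that signals through JAK kinases and STAT proteins to a complex of STAT proteins with IRF9, and that complex binds a DNA element called the interferon-stimulated response element (ISRE). The genes it switches on include sensors of viral RNA and DNA, enzymes that degrade or trap viral RNA, and the ubiquitin-like modifier ISG15. B cells immortalised with Epstein-Barr virus are known to keep some interferon-stimulated genes on without added interferon. Calcitriol acts through the vitamin D receptor, a nuclear receptor, and CYP24A1, the enzyme that breaks calcitriol down, is its best known target gene.

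Levels are the authors' RMA values on the log2 scale, on which a difference of 1 is a factor of 2, and a level is compared only between samples for the same probe set. CYP24A1 lay between 4.09 and 4.96 at 36 h, against 2.74 to 3.63 at 0 h, over the 8 lymphoblastoid arrays of each time. It was 9.15 and 9.17 in Ag09309, 8.52 and 8.41 in Ag09319, 10.04 and 10.05 in HL60 and 7.15 and 5.03 in K562 at 36 h, against 3.08 and 3.08, 3.59 and 2.86, 3.75 and 3.45, and 3.67 and 3.63 in the same order at 0 h. In HEP-G2 it was 6.98 and 7.07 at 36 h, against 6.78 and 6.14 at 0 h. The median of 12 fibroblast markers at 0 h was 9.47 in Ag09309 and 9.24 in Ag09319, and both lines are called fibroblast-like here on that basis. The untreated Ag09309 arrays also held B lymphoid transcripts. MS4A1, the B cell surface protein CD20, was 8.15 and 8.07 there at 0 h, 3.38 and 3.29 at 8 h and 3.10 and 2.85 at 36 h. The median of the 9 measured of 12 B lymphoid markers was 5.85, 4.21 and 3.94 in Ag09309 at 0, 8 and 36 h, against 7.40 to 8.00 in the lymphoblastoid lines and 4.11 in Ag09319 at 0 h. Counts over lines that use Ag09309 are therefore given with and without it. The arrays that correlated least with their partner (r = 0.9305, 0.9626 and 0.9689) were Ag09319 at 8 h replicate 2, HEP-G2 at 0 h replicate 2 and K562 at 36 h replicate 1. No untreated culture of the later times was analysed here, so calcitriol and time in culture cannot be told apart. The titles mark the 2 arrays BR1 and BR2, and the labels do not say that they came from separate cultures. The spread behind p-values for single lines and for differences among lymphoblastoid lines may therefore be technical. Tests over lines use the means of the 2 arrays and the spread between lines. In bulk RNA, fewer cells of a type and less RNA per cell cannot be told apart.

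The sequence just upstream of the start site bears on these genes because the ISRE lies there in many of them. RefSeq promoters (build GRCh38.p14) matched 30 of the 37 genes. The ISRE core, spelled GAAA, any 2 bases and GAAA again and searched on both strands, occurred in the 250 bases upstream of the start in 18 of the 30 genes, against 3.02% of 35116 promoters of the same length. The gamma-activated site, spelled TTCNNNGAA, occurred in 8 of the 30 (26.7%), against 6.57%, and may overlap an ISRE core. The sequences below are the genes with the largest change in lymphoblastoid lines that hold the ISRE core and could be shown, followed by ISG15, chosen after its values were seen because it holds the letters and did not pass the test. Capitals mark the ISRE core on either strand. DDX60 is chr4:168318753-168318895 and DDX60L is chr4:168480493-168480627, both on the minus strand, and IFIH1 is chr2:162318685-162318898 on the minus strand. IFI44L is chr1:78620229-78620439 and ISG15 is chr1:1013329-1013454, both on the plus strand. Each is written 5′ to 3′ along the strand of the gene.
DDX60: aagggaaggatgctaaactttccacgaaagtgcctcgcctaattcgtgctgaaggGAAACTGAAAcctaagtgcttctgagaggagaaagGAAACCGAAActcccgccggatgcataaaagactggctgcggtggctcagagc
DDX60L: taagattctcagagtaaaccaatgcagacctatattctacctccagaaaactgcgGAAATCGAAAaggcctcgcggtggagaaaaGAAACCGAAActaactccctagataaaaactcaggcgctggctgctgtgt
IFIH1: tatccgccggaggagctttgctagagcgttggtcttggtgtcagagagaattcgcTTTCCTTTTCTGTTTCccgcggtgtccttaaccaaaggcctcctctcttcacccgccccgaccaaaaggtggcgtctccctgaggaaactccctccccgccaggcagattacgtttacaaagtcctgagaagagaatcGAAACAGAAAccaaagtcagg
IFI44L: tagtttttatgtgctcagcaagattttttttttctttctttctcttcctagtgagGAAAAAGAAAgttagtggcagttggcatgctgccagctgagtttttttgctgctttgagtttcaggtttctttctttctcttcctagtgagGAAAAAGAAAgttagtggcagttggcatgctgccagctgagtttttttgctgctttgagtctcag
ISG15: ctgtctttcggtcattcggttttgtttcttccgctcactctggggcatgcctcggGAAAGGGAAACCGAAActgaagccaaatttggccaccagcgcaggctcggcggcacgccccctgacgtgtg
Counted from the start site, the first base of the letters lay at -88 and -53 in DDX60 and at -80 and -50 in DDX60L. IFIH1 held 3 matches, 2 of them overlapping on the opposite strand and 1 that began at -21. In IFI44L the same letters began at -164 and -73, within a stretch of 85 bases present in 2 copies. ISG15 held 2 overlapping matches that began at -113 and -107. The median log2 change at 36 h against 0 h in lymphoblastoid lines was 0.41 in the 18 genes with the ISRE core and 0.34 in the 12 without it. For the gamma-activated site these medians were 0.27 in the 8 genes with it and 0.40 in the 22 without it. A match of letters is a description of the window and does not show that a factor was bound.

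Most interferon-stimulated genes were higher in the lymphoblastoid lines after 36 h with calcitriol than before it, and by small amounts. The change was positive in 35 of 37 genes, with a median of 0.36 on the log2 scale, against -0.01 over all 19460 probe sets tested. Of these 12 passed the test, against 1.06% of all probe sets called higher (limma on the means of the 2 arrays, the 4 lines as replicates, Benjamini-Hochberg over all probe sets). They were DDX60, DDX60L, IFIH1, IFI44L, IFIT1, EPSTI1, RSAD2, OAS3, XAF1, MX1, HERC6 and IFI6. DDX60, EPSTI1, RSAD2 and HERC6 had a mean level under 6 in every group, so the filter on low probe sets leaves them out. DDX60L passed the filter through other lines, but averaged 3.85 at 0 h and 4.45 at 36 h over the lymphoblastoid lines. Levels this low cannot be told from background, since no detection calls came with the arrays. In 22 genes all 4 lines were higher at 36 h, against 9.52% of all probe sets. The call rested on GM10854 and GM07019: without GM10854 no gene passed and without GM07019 DDX60, IFIH1 and IFIT1 passed, against 18 without GM07348 and 11 without GM12878. These counts with a line left out are given without the share over all probe sets. With all 33297 probe sets of the table in the adjustment, IFIT1 alone passed (limma adjusted p = 0.0459).

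**Figure D1:**
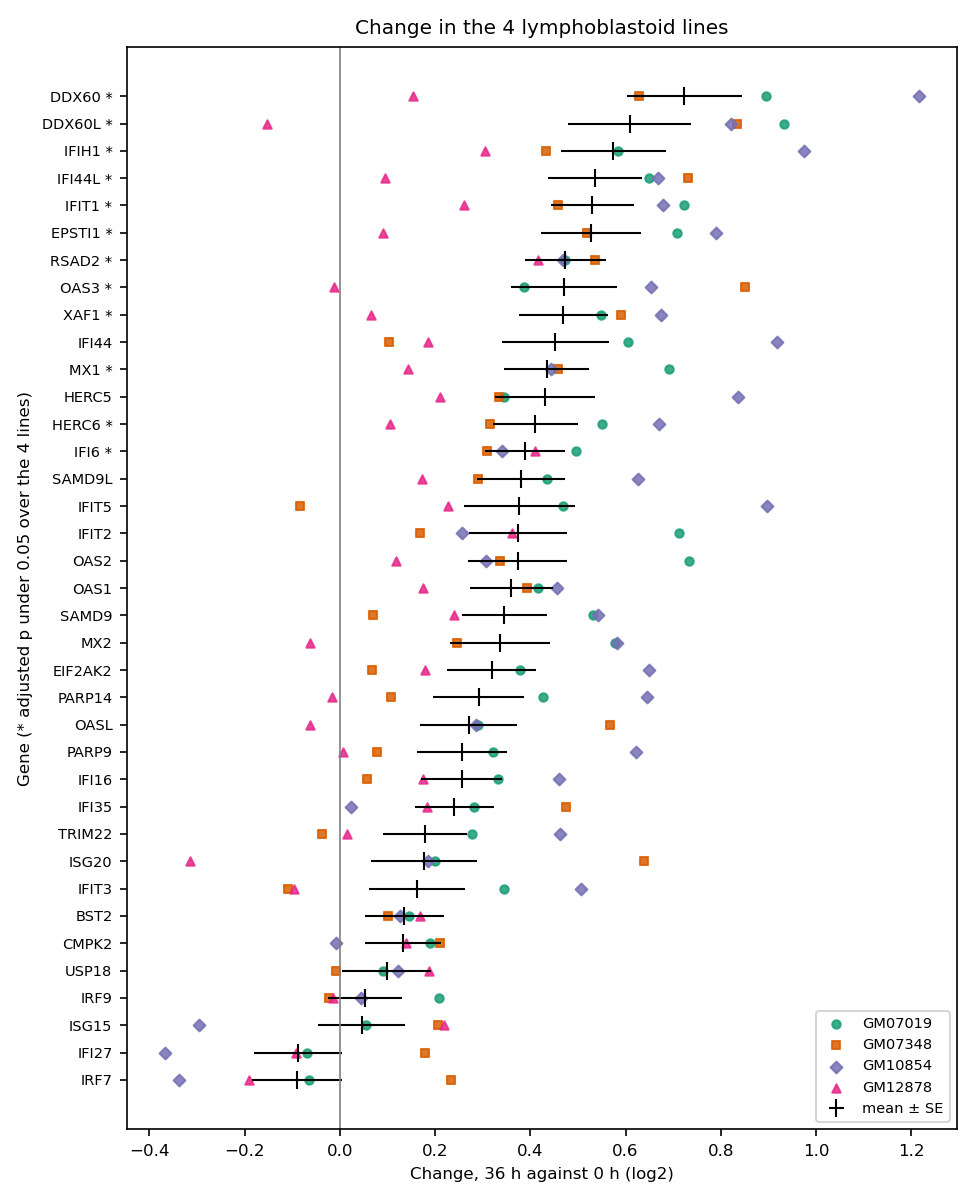
Log2 change at 36 h against 0 h of the 37 interferon-stimulated genes in each of the 4 lymphoblastoid lines (points, mean of 2 arrays a time), with the mean over lines ± SE. Asterisks mark the 12 genes that passed the test. DDX60 has the largest mean, 0.72, and IFI27 and IRF7 lie below 0.

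Among the sensors of foreign nucleic acid, 3 of 4 rose and the median change was 0.59. DDX60, a helicase-like protein known to promote signalling by the RNA sensor RIG-I, had a lowest, median and highest level of 3.67, 4.24 and 5.55 at 0 h, 3.69, 4.37 and 5.05 at 8 h and 4.27, 5.27 and 5.69 at 36 h over 8 arrays. The ranges of the 3 times overlapped across lines. Within GM10854 the 2 arrays read 3.85 and 4.08 at 0 h, 4.39 and 4.14 at 8 h and 5.23 and 5.14 at 36 h, without overlap between 36 h and the earlier times. The mean of DDX60 was 5.12 ± 0.49 at 36 h and 4.40 ± 0.72 at 0 h (SD, n = 4 lines), a change of 0.72 ± 0.12 (SE, limma adjusted p = 0.0038), between 0.15 and 1.22 by line. DDX60L, its neighbour in the genome and closest relative, had 3.42, 3.84 and 4.44 at 0 h, 3.36, 3.72 and 4.47 at 8 h and 3.80, 4.38 and 5.22 at 36 h. It was higher in 3 of 4 lines, by 0.61 ± 0.13 on average (limma adjusted p = 0.0242). GM12878 ran the other way, with 3.94 and 3.80 at 36 h, against 4.15 and 3.90 at 0 h, a change of -0.15.

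IFIH1, the cytoplasmic sensor of long double-stranded RNA also called MDA5, had a lowest, median and highest level of 6.29, 6.44 and 7.55 at 0 h, 6.46, 6.63 and 7.25 at 8 h and 6.95, 7.22 and 7.92 at 36 h. The 36 h arrays of each line were above both 0 h arrays of that line. Its mean was 7.29 ± 0.35 at 36 h and 6.71 ± 0.52 at 0 h (SD, n = 4 lines), a change of 0.57 ± 0.11 (limma adjusted p = 0.0115). IFI16, a DNA sensor of the nucleus, had 7.55, 7.69 and 8.05 at 0 h, 7.44, 7.73 and 7.97 at 8 h and 7.57, 8.09 and 8.29 at 36 h. Its change of 0.26 did not pass (limma adjusted p = 0.180).

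Neither transcription factor passed. IRF9, the DNA-binding part of the interferon-activated complex, changed by 0.05 (limma adjusted p = 0.784). IRF7, which drives further interferon genes, changed by -0.09 (limma adjusted p = 0.683). In the ISG15 system 1 of 4 genes rose, with a median of 0.25. HERC6, a relative of HERC5 that attaches ISG15 to proteins in the mouse, had a mean of 5.51 at 36 h and 5.10 at 0 h and rose by 0.41 ± 0.09 (limma adjusted p = 0.0292). HERC5, the main ligase that attaches ISG15 in human cells, had a change of 0.43 (limma adjusted p = 0.0556). ISG15 itself changed by 0.05 (limma adjusted p = 0.848), and USP18, which removes ISG15 from proteins and restrains the interferon receptor, by 0.10 (limma adjusted p = 0.649).

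Of the IFIT genes, whose products bind viral RNA ends, 1 of 4 rose. IFIT1 had a lowest, median and highest level of 5.88, 6.43 and 7.20 at 0 h, 5.55, 6.55 and 6.99 at 8 h and 6.19, 7.16 and 7.53 at 36 h. In GM07019, GM07348 and GM10854 the 36 h arrays were the highest of the line, while in GM12878 one 36 h array lay below one 0 h array. The mean was 7.01 ± 0.43 at 36 h and 6.48 ± 0.48 at 0 h (SD, n = 4 lines), a change of 0.53 ± 0.09 (limma adjusted p = 0.0033). IFIT5, IFIT2 and IFIT3 had changes of 0.38, 0.37 and 0.16, none past the test. The oligoadenylate synthetases, which make the signal that activates RNase L, gave 1 of 4. OAS3 had 5.65, 6.34 and 7.45 at 0 h, 5.85, 6.23 and 6.90 at 8 h and 6.43, 6.88 and 7.32 at 36 h. It was higher in 3 of 4 lines by 0.47 ± 0.11 on average (limma adjusted p = 0.0485). The highest OAS3 value at any time was an untreated GM12878 array. OAS2, OAS1 and OASL, the last a family member without the synthetase activity, had changes of 0.37, 0.36 and 0.27 and did not pass.

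Among 10 other antiviral effectors, RSAD2 and MX1 rose, and the median change was 0.33. RSAD2, also called viperin, makes a nucleotide that ends viral RNA synthesis. Its lowest, median and highest levels were 3.39, 3.56 and 4.19 at 0 h, 3.13, 3.82 and 3.97 at 8 h and 3.86, 4.13 and 4.56 at 36 h. It rose by 0.47 ± 0.09 (limma adjusted p = 0.00718), and the 4 lines lay close together, between 0.42 and 0.54. CMPK2, the nucleotide kinase encoded next to RSAD2, had a change of 0.13. MX1, a GTPase that traps viral nucleocapsids, had 8.92, 9.21 and 10.03 at 0 h, 8.95, 9.45 and 9.83 at 8 h and 9.39, 9.72 and 10.12 at 36 h, and rose by 0.43 ± 0.09 (limma adjusted p = 0.0205). Its neighbour MX2, which restricts retroviruses, had a change of 0.34 (limma adjusted p = 0.154). SAMD9L and SAMD9, neighbours that restrict poxviruses, had changes of 0.38 and 0.35, and EIF2AK2, the RNA-activated kinase PKR, 0.32, none past the test. The E3 ligase TRIM22 had 8.14, 8.47 and 9.31 at 0 h, 8.34, 8.56 and 9.15 at 8 h and 8.47, 8.73 and 9.32 at 36 h, a change of 0.18. The exonuclease ISG20 and the virion tether BST2 had 0.18 and 0.14. PARP14 and PARP9, which add ADP-ribose to proteins, had 0.29 and 0.26 and did not pass either.

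In the last group, of IFI genes and others, 4 of 7 rose, with a median of 0.45. IFI44L, whose product is known to dampen the interferon response, had a lowest, median and highest level of 8.59, 9.15 and 9.94 at 0 h, 8.56, 9.14 and 9.72 at 8 h and 9.32, 9.86 and 10.08 at 36 h. The arrays of 3 lines separated 36 h from 0 h by more than the spread between partners, and those of GM12878 read 10.08 and 9.94 at 36 h, against 9.89 and 9.94 at 0 h. The change was 0.54 ± 0.10 (limma adjusted p = 0.0083). Its neighbour IFI44 had 7.15, 7.54 and 8.38 at 0 h, 7.31, 7.60 and 8.03 at 8 h and 7.67, 8.11 and 8.45 at 36 h, and its change of 0.45 missed the threshold (limma adjusted p = 0.0598). EPSTI1, named for epithelial and stromal interaction, had 4.05, 4.62 and 5.39 at 0 h, 3.85, 4.64 and 5.21 at 8 h and 4.58, 5.27 and 5.74 at 36 h, and rose by 0.53 ± 0.11 (limma adjusted p = 0.0150). XAF1, which antagonises an inhibitor of apoptosis, rose by 0.47 ± 0.09 (limma adjusted p = 0.0150). IFI6, a membrane protein with antiviral activity, rose by 0.39 ± 0.09 (limma adjusted p = 0.0280). IFI35 and IFI27 had changes of 0.24 and -0.09, with IFI27 the only gene besides IRF7 below 0.

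At 8 h the interferon-stimulated genes of the lymphoblastoid lines had not moved past the test, and at 36 h some were above both earlier times. At 8 h against 0 h no gene passed in the lymphoblastoid lines, against 0.0257% of all probe sets, and at an unadjusted p under 0.05 limma called 0 of the 37 genes and 616 of all probe sets. The median change at 8 h was 0.01, with 20 of 37 above 0, and 0 genes were higher in 4 of 4 lines, against 4.15% of all probe sets. At 36 h against 8 h, a comparison without the untreated arrays, 9 genes rose, against 0.277% of all probe sets. These were DDX60 (0.73), DDX60L (0.65), IFI44L (0.62), EPSTI1 (0.57), OAS3 (0.56), IFIH1 (0.55), IFIT1 (0.55), XAF1 (0.46) and RSAD2 (0.45), with limma adjusted p between 0.0121 and 0.0474. The change was above 0 in 36 of 37 genes with a median of 0.33, and in 30 it was higher in 4 of 4 lines, against 10.3% of all probe sets. This comparison shares its 36 h arrays with the one above. Without GM10854 it called 0 genes, without GM07019 2 and without GM07348 4, and with all probe sets in the adjustment 0. The share over all probe sets in these settings is not given, so they only show how calls moved. Under quantile normalization 8 of the 9 calls were lost (limma adjusted p between 0.0501 and 0.191) and IFIT1 kept its call.

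**Figure D2:**
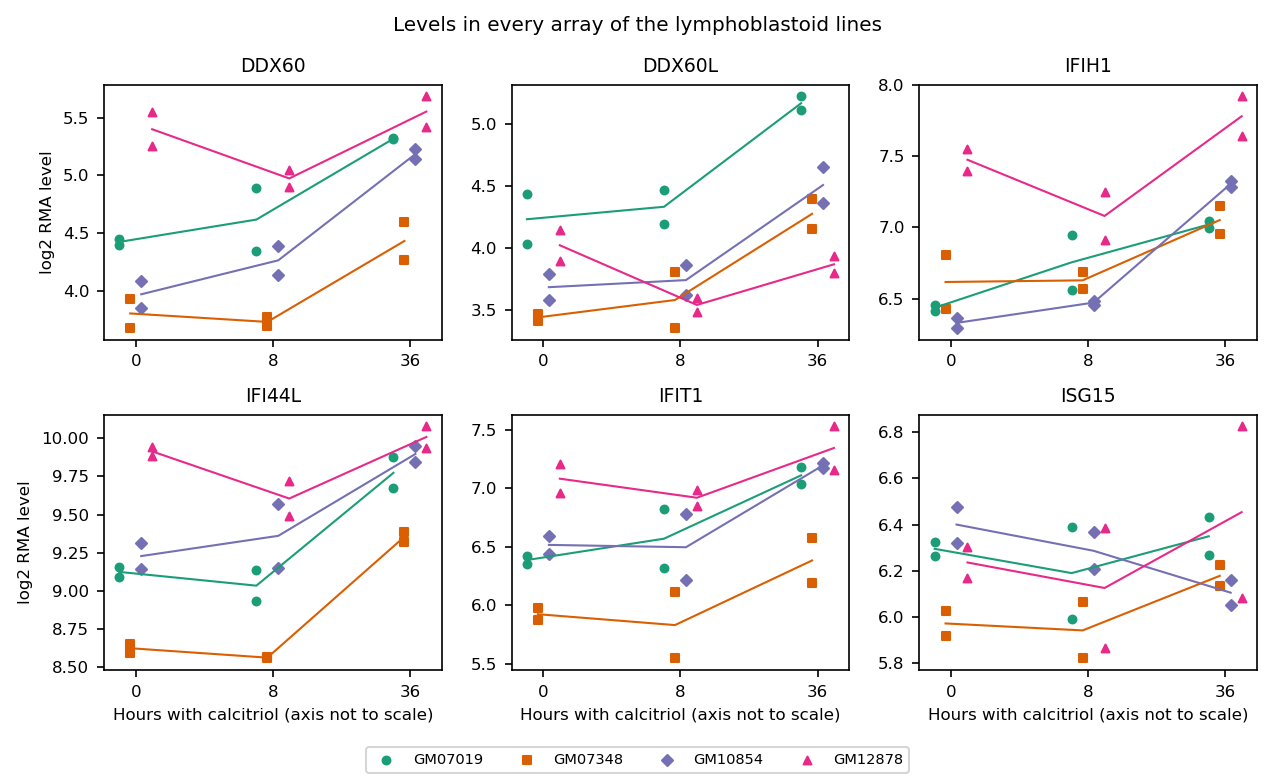
Log2 level in every lymphoblastoid array at 0, 8 and 36 h for DDX60, DDX60L, IFIH1, IFI44L, IFIT1 and ISG15 (points are arrays, lines join the means of a cell line, time axis not to scale). In GM07019, GM07348 and GM10854 the first 5 genes lie higher at 36 h than at 8 h, and GM12878 starts above the rest in DDX60, IFIH1, IFI44L and IFIT1.

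By line, the median change at 36 h against 0 h was 0.51 in GM10854, 0.43 in GM07019, 0.29 in GM07348 and 0.14 in GM12878, with 33, 35, 32 and 27 of 37 genes above 0. At 36 h against 8 h the medians were closer, at 0.36, 0.27, 0.34 and 0.33. In GM12878 the 8 h arrays were the low ones. The median change at 8 h against 0 h was -0.17, and in 20 genes both 8 h arrays lay below both 0 h arrays, against 18.6% of all probe sets. A test of the difference between lines in the change at 36 h called 0 genes (limma F test), against 0% of all probe sets. At an unadjusted p under 0.05 it gave 6 of the 37 genes and 558 of all probe sets. Single lines were tested in a joint fit of all arrays, with a spread shared by the lines. With its arrays fitted alone, GM10854 gave more calls than in the joint fit, and these are counted in the last section. In the joint fit DDX60 rose in GM10854 by 1.22 ± 0.24 (limma adjusted p = 0.0296, or 0.0745 with all probe sets in the adjustment), against 0.0668% of probe sets. No gene passed in GM07019, GM07348 or GM12878, against 0.0514%, 0.118% and 0.0514% of probe sets. Without the 3 arrays that stood apart, none of them lymphoblastoid, the shared spread of that fit gave 7 genes in GM10854 (against 0.581%), 2 each in GM07019 (0.123%) and GM07348 (0.319%), and 0 in GM12878 (0.118%).

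The starting level did differ between lymphoblastoid lines. At 0 h 18 of 37 genes passed a test of any difference among the 4 lines, against 5.46% of all probe sets (limma F test). Among them were DDX60, HERC5, MX2, OAS3, PARP9 and USP18. HERC5 was 7.60 and 7.36 in untreated GM12878. DDX60 was 5.55 and 5.25 there, against 3.93 and 3.67 in GM07348. The median level over the 37 genes was 7.47 in GM12878, 6.79 in GM07348, 7.06 in GM07019 and 7.19 in GM10854 at 36 h, against 7.32, 6.55, 6.53 and 6.52 in the same order at 0 h.

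**Figure D3:**
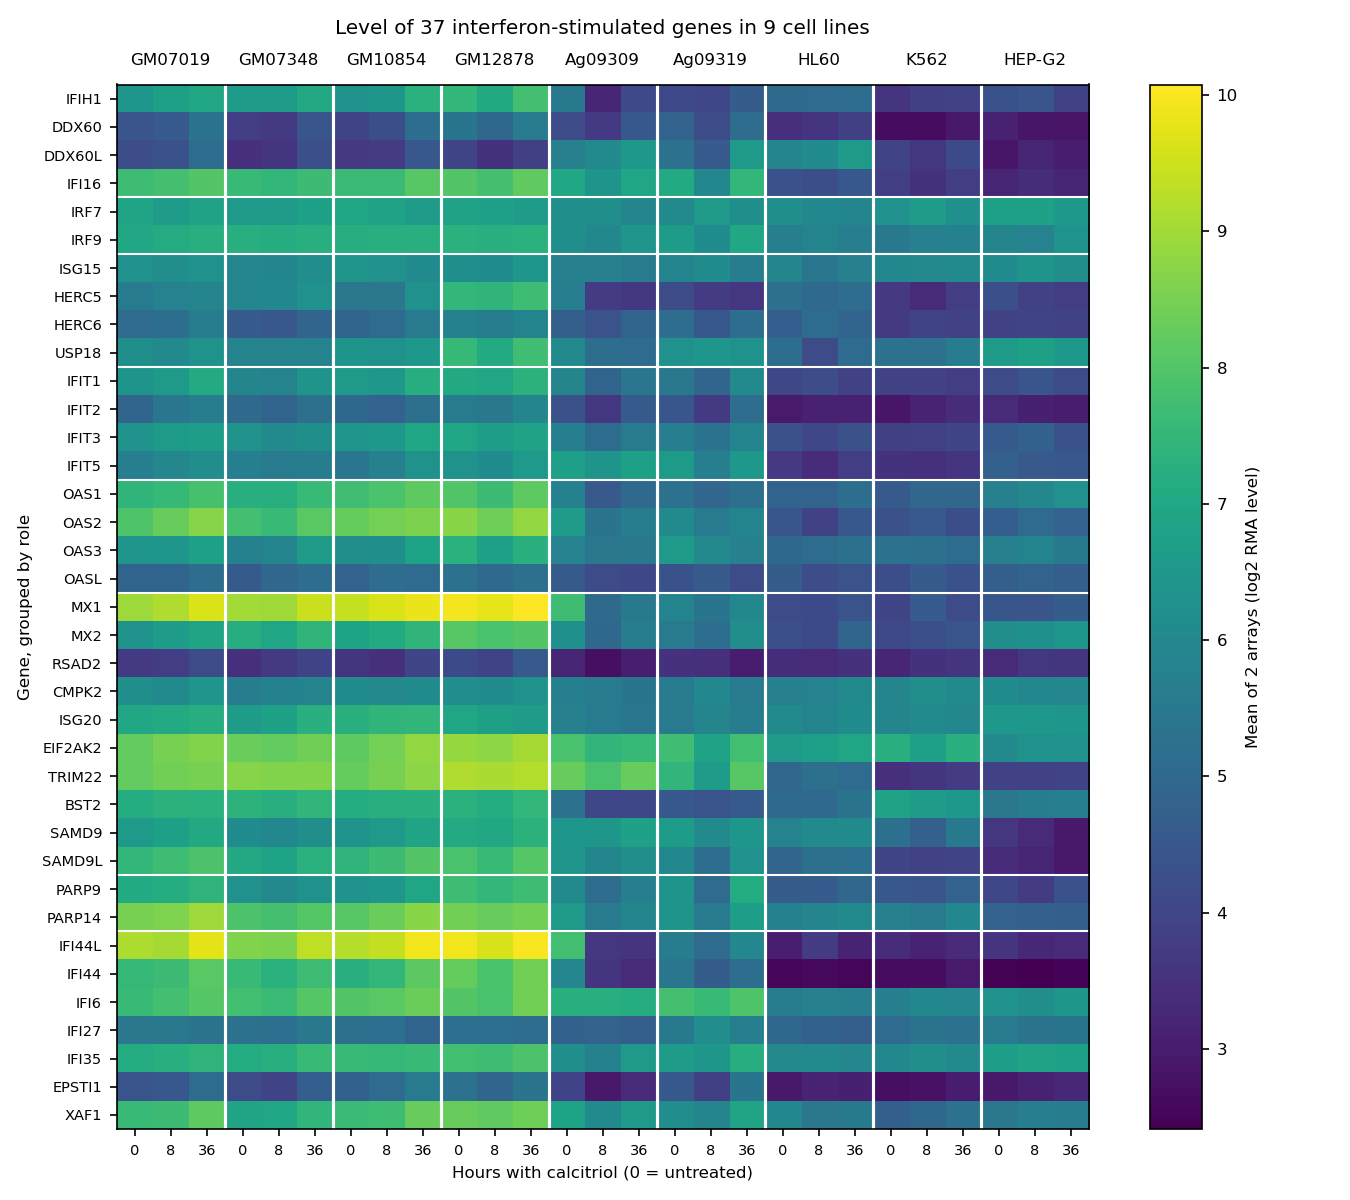
Mean log2 level of 2 arrays for the 37 interferon-stimulated genes (a strip each) in 9 cell lines at 0, 8 and 36 h, with the lymphoblastoid lines at the left. IFI44L, MX1, IFI44 and OAS2 are bright across the lymphoblastoid lines and dim in HL60, K562 and HEP-G2, and ISG15 and CMPK2 are nearly even.

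Before any calcitriol, interferon-stimulated genes were higher in lymphoblastoid lines than in the other 5 lines. The difference of class means was above 0 in 36 of 37 genes, with a median of 1.32, and 11 were higher past the test, against 2.22% of all probe sets (limma on the 0 h line means). These were IFI44L (4.53), MX1 (4.08), IFI44 (3.83), OAS2 (2.94), PARP14 (2.39), OAS1 (2.33), IFIH1 (2.19), BST2 (1.82), IRF9 (1.19), IFI35 (1.07) and ISG20 (1.01), with limma adjusted p between 0.00262 and 0.0355. In 19 genes all 4 lymphoblastoid lines lay above all 5 others, against 4.21% of all probe sets. Without Ag09309, whose untreated arrays held lymphoid transcripts, 14 passed, against 2.5% in either direction, and 21 did not overlap, against 4.71%. BST2, IFI35 and ISG20 were then no longer past the test (limma adjusted p of 0.0772, 0.0669 and 0.0729), and IFIT1, IFIT2, IFIT3, TRIM22, SAMD9L and XAF1 were. Leaving out GM07348 or GM12878 left 3, and leaving out GM07019 or GM10854 left 4. The share over all probe sets with a line left out is not given, so these counts are no result about the genes.

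IFI44L had the widest range of 0 h line means, 6.86. It averaged 9.22 ± 0.53 in lymphoblastoid lines (SD, n = 4 lines) and 4.69 ± 1.99 in the others (SD, n = 5 lines). Outside the lymphoblastoid lines its arrays read 7.81 and 7.69 in Ag09309, 5.78 and 5.56 in Ag09319, 3.16 and 2.95 in HL60, 3.56 and 3.24 in K562 and 3.47 and 3.70 in HEP-G2. The untreated Ag09309 arrays were the highest of these, and the arrays of the 3 cancer lines lay between 2.95 and 3.70. MX1 read 7.81 and 7.61 in Ag09309, 5.93 and 5.83 in Ag09319, 4.47 and 3.85 in HL60, 3.81 and 4.22 in K562 and 4.39 and 4.55 in HEP-G2. IFI44 read 6.08 and 5.86, 5.43 and 5.40, 2.30 and 2.82, 2.93 and 2.38, and 2.34 and 2.59 in these lines in the same order. These 3 genes were thus lowest in the 3 cancer lines.

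TRIM22 and IFI16 were high in both fibroblast-like lines as well. TRIM22 was 8.48 and 8.10 in untreated Ag09309 and 7.61 and 7.28 in Ag09319, against 4.82 and 5.07 in HL60, 3.62 and 3.33 in K562 and 3.78 and 4.05 in HEP-G2. IFI16 was 7.08 and 6.95, and 7.16 and 7.06, against 4.16 and 4.55, 4.04 and 3.63, and 3.07 and 3.34 in the same order. Neither differed between classes past the test over 9 lines. Without Ag09309 TRIM22 was higher in lymphoblastoid lines by 3.65 (limma adjusted p = 0.0481), and IFI16 had a difference of 3.11 (limma adjusted p = 0.0721). Levels of ISG15 had the narrowest range between lines at 0 h, 0.65, followed by CMPK2 (0.68) and IFI27 (0.77). The highest line was not lymphoblastoid for a few genes: IFIT5 was 6.74 in Ag09309, DDX60L 5.90 in HL60 and IFI27 5.57 in HEP-G2. DDX60L was the gene with a negative class difference, -0.92 (limma adjusted p = 0.601). At 36 h 20 genes were higher in lymphoblastoid lines, against 2.66% of all probe sets, led by IFI44L (5.87), MX1 (4.81), IFI44 (4.79) and OAS2 (3.52).

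Whether the change itself differed between lymphoblastoid and other lines was tested directly, and no gene passed, against 0.0154% of all probe sets. The difference of changes at 36 h was above 0 in 34 of 37 genes, with a median of 0.29, and 12 genes and 1465 of all probe sets had an unadjusted limma p under 0.05. OAS3 had a difference of 0.72 (limma adjusted p = 0.276) and HERC5 of 1.03 (limma adjusted p = 0.381). Without Ag09309 no gene passed either, against 0.0206%, and the median was 0.14 with 32 genes above 0. OAS3 then had 0.70 (limma adjusted p = 0.458) and HERC5 0.67 (limma adjusted p = 0.363).

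Over all 9 lines at 36 h against 0 h DDX60L was the gene that passed, higher in 8 of 9 lines by 0.59 ± 0.14 on average (limma adjusted p = 0.046), against 0.447% of all probe sets. The call was lost when GM07019, GM07348, GM10854, HL60 or K562 was left out. The median change was 0.16 and 29 of 37 genes lay above 0. Without Ag09309 the call was lost as well (limma adjusted p = 0.0777). No gene passed then, against 0.483%, while the median was 0.23 and 34 genes lay above 0. DDX60L read 6.42 and 6.68 in HL60 at 36 h, against 5.65 and 6.15 at 0 h. At 36 h against 8 h DDX60 (0.57, limma adjusted p = 0.0135) and DDX60L (0.63, limma adjusted p = 0.0334) rose over 9 lines, each in 8 of 9, against 0.355%. Without GM07348 neither passed, and without GM07019, GM10854 or K562 1 gene passed, counts given without the share over all probe sets. DDX60L also lost its call without Ag09319 (limma adjusted p = 0.0609). Without Ag09309 DDX60 (0.54) and MX2 (0.42) passed, against 0.313%. At 8 h against 0 h no gene passed, against 0% of all probe sets, with 2 genes and 542 probe sets at an unadjusted limma p under 0.05. The median change was -0.12 with 6 genes above 0, and without Ag09309, where no gene passed either, it was -0.04 with 12 above 0.

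**Figure D4:**
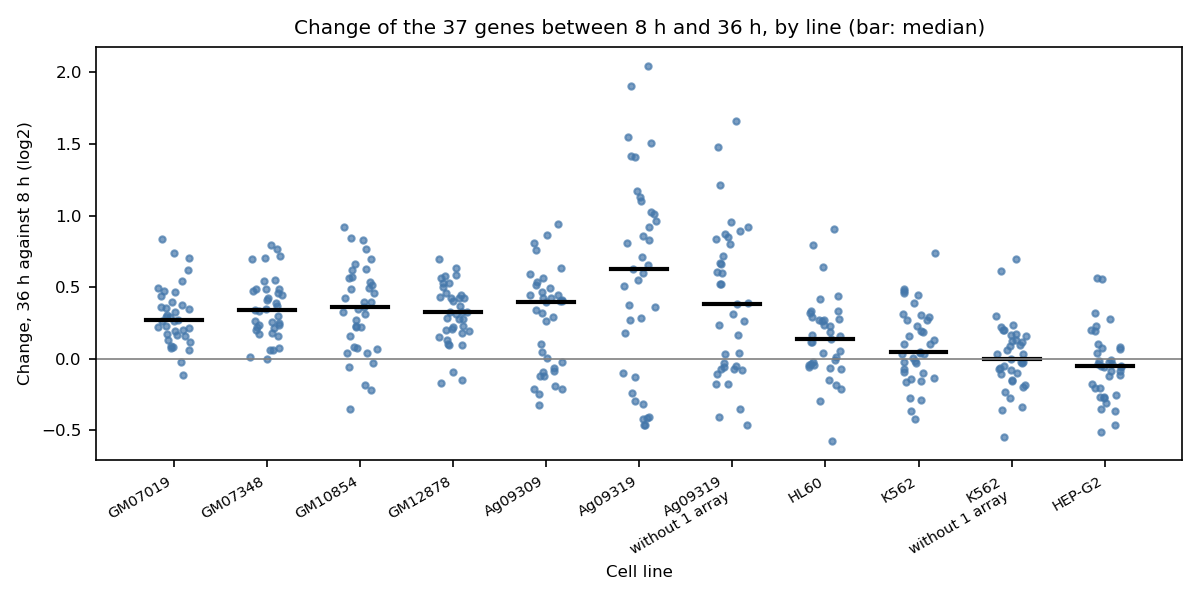
Log2 change at 36 h against 8 h of the 37 genes (points) in each of 9 lines, with the median as a bar, and for Ag09319 and K562 also without the array that stood apart. The medians of the 4 lymphoblastoid lines lie between 0.27 and 0.36, Ag09319 at 0.63 or 0.38 without the array, and HEP-G2 at -0.05.

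The largest single changes were in the fibroblast-like lines. In Ag09309 10 genes were lower at 36 h than in the untreated arrays, against 2.26% of all probe sets: IFI44L (-4.15), IFI44 (-2.65), MX1 (-2.20), HERC5 (-2.03), IFIH1 (-1.42), BST2 (-1.19), USP18 (-0.98), OAS1 (-0.75), MX2 (-0.62) and OAS2. With the arrays of Ag09309 fitted alone USP18 and MX2 lost their calls (limma adjusted p of 0.0524 and 0.0527). MX2 also lost its call under median centring (limma adjusted p = 0.0668). Across the alternatives USP18 ran from -1.48 to -0.49 and OAS1 from -0.95 to -0.56. IFI44L read 7.81 and 7.69 at 0 h, 3.66 and 3.59 at 8 h and 3.65 and 3.56 at 36 h. MX1 read 7.81 and 7.61 at 0 h, 5.06 and 5.09 at 8 h and 5.76 and 5.24 at 36 h. MS4A1 and CD53, a leukocyte surface protein, moved with them: CD53 was 8.78 and 8.52 at 0 h, 4.45 and 4.57 at 8 h and 2.93 and 3.37 at 36 h. All 3 genes were high in the 2 untreated arrays, and the part of the lymphoid transcripts in the fall of these genes was not tested. At 8 h 13 genes were lower than at 0 h, against 1.42%. At 36 h against 8 h, where no untreated array enters, IFI35 rose by 0.76 (limma adjusted p = 0.0108, or 0.064 with the line fitted alone), against 0.293%. Without the 3 arrays that stood apart, all from other lines, IFIH1, DDX60, IFIT2, MX2 and PARP9 passed there too, against 1.8% in either direction.

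In Ag09319, DDX60L, EPSTI1, PARP9, MX2 and IFI35 rose and OAS3 fell at 36 h against 0 h, against 1.78% of all probe sets higher and 2.71% lower. All 6 calls rest on the spread shared by the 9 lines: with the arrays of Ag09319 fitted alone none passed (limma adjusted p from 0.495), and IFI35 was also lost with the replicate block (limma adjusted p = 0.0531). DDX60L read 5.51 and 5.11 at 0 h, 5.31 and 3.93 at 8 h and 6.48 and 6.58 at 36 h, and rose by 1.22 (limma adjusted p = 0.00315). EPSTI1 read 4.71 and 4.33 at 0 h, 3.92 and 3.78 at 8 h and 5.33 and 5.47 at 36 h, and rose by 0.88 (limma adjusted p = 0.00285). PARP9 read 6.52 and 6.23 at 0 h, 5.47 and 4.70 at 8 h and 6.98 and 7.29 at 36 h, and rose by 0.76 (limma adjusted p = 0.0186). In all 3 the 36 h arrays were the highest of the line. OAS3 read 6.71 and 6.32 at 0 h, 6.20 and 5.86 at 8 h and 5.65 and 5.82 at 36 h, and fell by 0.78 (limma adjusted p = 0.00868). It was the only gene called lower, which is no more than the share of all probe sets called lower. Against 8 h 19 genes were higher at 36 h, led by PARP9 (2.05), DDX60L (1.91) and EPSTI1 (1.55), but 10.8% of all probe sets were higher there. With the arrays of Ag09319 fitted alone none of these 19 genes kept its call (limma adjusted p from 0.129). Without the arrays that stood apart, one of which is of this line at 8 h, 10 genes passed, against 6.18% in either direction, with PARP9 at 1.66, EPSTI1 at 1.48 and DDX60L at 1.22. At 8 h against 0 h IFI16 (-1.12) and PARP9 (-1.29) fell in this line, against 0.267%. With the arrays of Ag09319 fitted alone both lost their call (limma adjusted p = 0.680 for each). Without the arrays that stood apart the changes were -0.50 for IFI16 and -0.90 for PARP9.

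**Figure D5:**
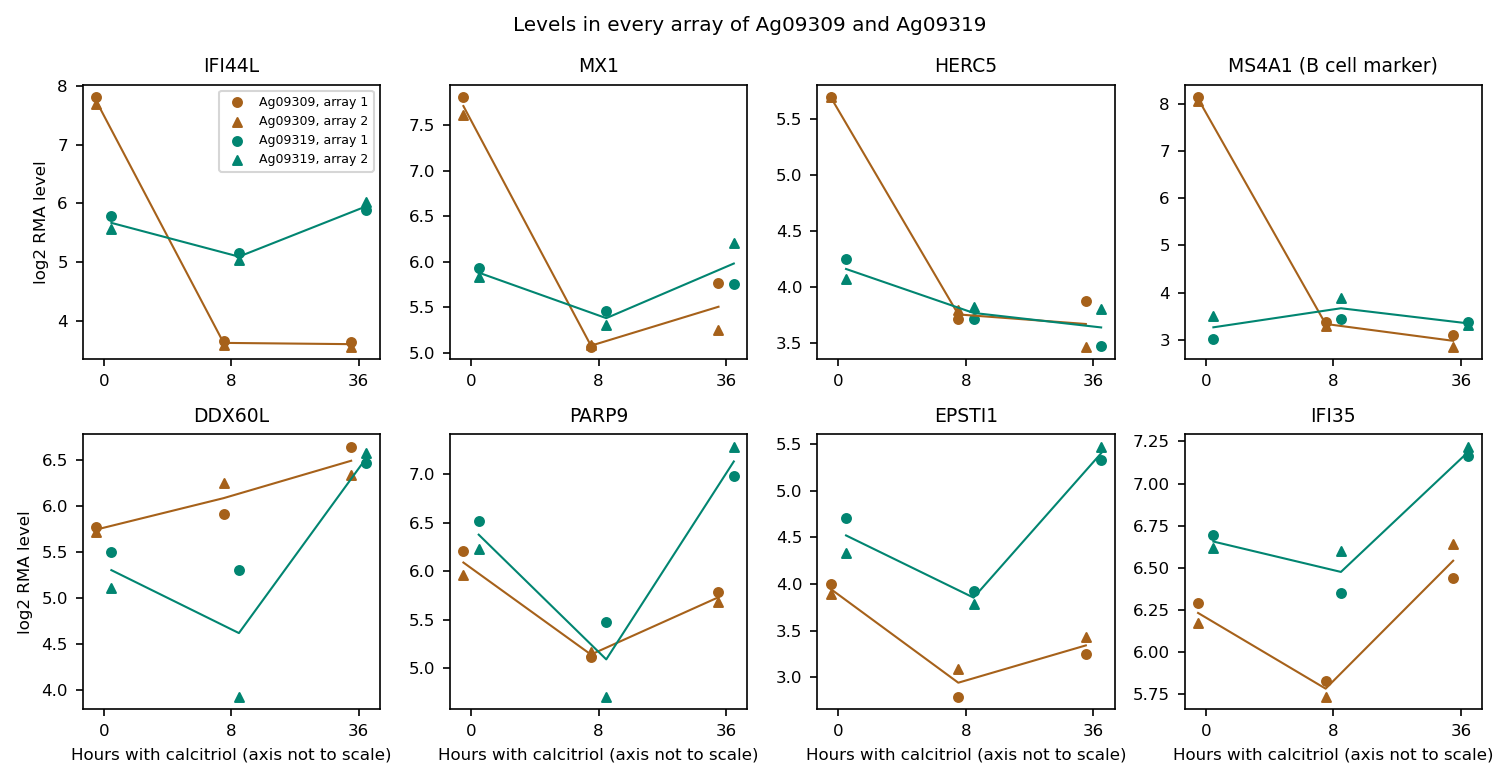
Log2 level in every array of Ag09309 and Ag09319 at 0, 8 and 36 h (time axis not to scale) for IFI44L, MX1, HERC5, the B cell marker MS4A1, DDX60L, PARP9, EPSTI1 and IFI35. IFI44L, MX1, HERC5 and MS4A1 are high in the 2 untreated Ag09309 arrays, and DDX60L, PARP9 and EPSTI1 are highest at 36 h in Ag09319.

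In the 3 cancer lines few genes moved. MX2 in HL60 read 4.22 and 4.38 at 0 h, 4.08 and 4.18 at 8 h and 4.94 and 4.90 at 36 h, and rose by 0.79 at 36 h against 8 h (limma adjusted p = 0.0172), against 0.154% of all probe sets. No gene passed at 36 h against 0 h in HL60, K562 or HEP-G2, against 0.868%, 0.0411% and 1.84% of all probe sets. Without the 3 arrays that stood apart MX2 (0.62, against 1.97% in either direction) also passed at 36 h against 0 h and USP18 (-0.98, against 0.545%) at 8 h against 0 h in HL60, and PARP9 (0.57, against 3.86%) at 36 h against 8 h in HEP-G2. PARP9 was the only gene called there in HEP-G2, a smaller share than over all probe sets. The MX2 call in HL60 at 36 h against 8 h was lost under median centring and with HL60 fitted alone (limma adjusted p of 0.0726 and 0.0757). The median change at 36 h against 0 h was 0.13 in HL60, 0.18 in K562 and 0.01 in HEP-G2. The median of all probe sets in K562 was 0.13, and without the 36 h array that stood apart the medians in K562 were 0.16 for the 37 genes and 0.02 for all probe sets. Median levels of the 37 genes at 0, 8 and 36 h were 4.94, 5.04 and 5.10 in HL60, 4.26, 4.56 and 4.33 in K562 and 4.70, 4.77 and 4.68 in HEP-G2. No detection calls came with the arrays, so a low level cannot be told from background.

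The other parts of the interferon pathway were read from 109 measured genes of 119 listed. In lymphoblastoid lines at 36 h against 0 h none of 16 interferon ligands and none of 10 receptor and JAK-STAT genes passed, against 1.06% of all probe sets called higher. IFNB1, the gene of interferon beta, had a change of -0.07 (limma adjusted p = 0.719). Its lymphoblastoid line means lay between 2.30 and 2.79 at 0 and 36 h. A level this low cannot be told from background, so this value does not show whether interferon beta changed. One of 7 feedback genes rose, PTPN2, a phosphatase that acts on JAK and STAT proteins, by 0.58. One of 6 interferon regulatory factors rose, the B cell and myeloid factor IRF8, by 0.51, while IRF1 had a change of 0.29 (limma adjusted p = 0.11). One of 19 sensing genes rose, AIM2, a cytoplasmic DNA sensor, by 0.55. Among 51 further interferon-stimulated genes 8 rose, and the largest were CD274, the checkpoint ligand PD-L1, by 0.90 (limma adjusted p = 8.05e-05), the ubiquitin ligase TRIM38 by 0.61, LAMP3 by 0.59, NMI by 0.51, SP140 by 0.48 and the guanylate-binding protein GBP4 by 0.45. The medians of these lists, in the order given, were -0.01, 0.09, 0.07, 0.03, 0.11 and 0.14, and none of their genes fell. Of the 11 genes that rose on these lists, CD274, TRIM38 and IRF8 passed without GM10854, and 7 genes in all passed without GM07019, 19 without GM07348 and 9 without GM12878. For these settings the share over all probe sets is not given, so the counts only show how calls moved.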

How the data were processed

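The 54 arrays are Affymetrix Gene 1.0 ST, hybridised with cDNA made from 100 ng of total RNA, per the labels' protocols. The deposited values are log2 expression values that the authors made with Affymetrix Expression Console 1.0 and RMA, per the submitters' processing notes, so background, normalization and summary over probes were set before deposit. Array medians ran from 4.981 to 5.309, and no 2 arrays were identical. The number of arrays, 2 for each line and time, limits the precision. Of 33297 probe sets, 21214 are in the probe table and 19460 carry 1 symbol (19429 matched a RefSeq gene ID, and 0 symbols changed).

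Groups came from the cell line and time in the labels. Statements over lines used limma 3.58.1 in R 4.3.3 on the mean of the 2 arrays with line as a term, and single lines and differences among lymphoblastoid lines used 1 fit of 27 groups to the 54 arrays. P-values are two-sided, adjusted by Benjamini-Hochberg over the 19460 probe sets, with a threshold of 0.05. The members and gene lists were chosen with earlier results of these data known. Every array's values are given for the 8 members with the largest lymphoblastoid change at 36 h and the 5 with the widest 0 h range. Pathway genes are named where called (up to 6 a list and comparison), besides IFNB1 and IRF1. Replicate numbers were checked for pairing: of 27 correlations of same-numbered deviations 14 were over 0.1 and 9 under -0.1, so arrays were not paired. Alternatives were quantile normalization, median centring, a filter on low probe sets, all probe sets tested, other sets of arrays or lines and the replicate number as a block. On simulated data with the spread of these arrays, the lymphoblastoid comparison at 36 h recovered 70.1% of changes of 0.5, 98.5% of changes of 1 and 100% of changes of 2, over 19460 probe sets. Of its 191 calls 12 were false.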

Additional observations from a re-analysis of the deposited data

Results flagged for a closer look

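Of 74 groups of 4 lymphoblastoid lines examined, 3 (4.1%) had 1 line whose gap to the next, divided by the range of the 4, was above Dixon's critical value, which chance gives in about 1 in 20 groups. The change of DDX60L at 36 h against 0 h was -0.153 in GM12878, against 0.82 to 0.93 in the other 3 lines. The change of IFI44L at 36 h against 0 h was 0.0944 in GM12878, against 0.65 to 0.73 in the others. The change of SAMD9 at 36 h against 8 h was 0.2173 in GM07348, against 0.31 to 0.33 in the others.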

How the results depend on the processing

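Counts of genes that passed moved as follows, and the cause was not tested. The counts are given without the share over all probe sets in the same setting. They show how calls moved and are no result about the genes. For lymphoblastoid lines at 36 h against 0 h (12 genes) the count was 1 with all probe sets tested and 0 to 18 with a line left out, and 8 to 13 under quantile normalization, centring and the filter on low probe sets. At 36 h against 8 h (9 genes, median 0.33) it was 1 under quantile normalization (median 0.28), 0 with all probe sets tested, and 0 to 6 with a line left out (median 0.29 to 0.34). Over 9 lines at 36 h against 0 h (1 gene) it was 0 under quantile normalization, centring and all probe sets tested, 2 without the 3 arrays that stood apart and 2 in the lines of the first title style, and 0 to 2 with a line left out. At 36 h against 8 h (2 genes) it was 1 under quantile normalization, under the filter on low probe sets and without the 3 arrays, 0 in the first title style, 0 to 2 with a line left out, and 0 without Ag09309 and the 3 arrays, a setting chosen after seeing the data. For the 0 h level (11 genes) it was 7 under centring, 2 in the first title style, 20 at 36 h and 3 to 14 with a line left out. In single lines at 36 h against 0 h (17 calls) it was 34 without the 3 arrays, 30 with each line fitted alone (18 in GM10854, 9 in Ag09309 and 0 in Ag09319) and 12 to 26 with 1 array left out. For 8 h against 0 h (15 calls) it was 11 to 40, and for 36 h against 8 h (21 calls) 13 to 31, or 4 with each line fitted alone. Levels at 0 h differing among lymphoblastoid lines (18 genes) gave 12 to 23. Pathway genes called in lymphoblastoid lines at 36 h against 0 h (11 genes) numbered 3 to 19 with a line left out, a setting added after seeing the data. Where 1 array is left out, the remaining one is assumed to vary like the other groups. With the replicate block, single lines gave 19 calls at 36 h against 0 h, 19 at 8 h and 22 at 36 h against 8 h, with 14 genes for the 0 h level among lymphoblastoid lines. IFIT5 in Ag09319 at 36 h against 8 h turned to -0.0753 without the 3 arrays or without the 8 h replicate 2 alone, and was 1.69 without the 8 h replicate 1. Of 1130 alternative values of single called genes 841 kept their call, 287 lost it and 2 reversed. Title style holds different lines and cannot be told apart from them.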
